A study of Saccharomyces cerevisiae with 6 samples.

Results

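The open reading frames (ORFs) closest to the chromosome ends of Saccharomyces cerevisiae were examined in strand-specific RNA-Seq libraries of rRNA-depleted total RNA. On each of the 16 nuclear chromosomes the lowest start and the highest stop of any annotated feature served as the 2 ends, and an ORF was taken when its midpoint lay within 20 kb of either. This gave 248 ORFs of 5772 nuclear ORFs, between 4 and 13 at each of the 32 ends. Expression was not used in the choice. Wild type (25T0b) cells were grown in glutamine-containing medium (WT-Glu) or in proline-containing medium (WT-Pro), and cells lacking DAL80 were grown in proline-containing medium (dal80-Pro), with 2 biological replicates per group. By the methods of the study, all strains carry ura3, his3 and trp1, the wild type is MATα, and the dal80 strain (FV080, dal80::kanMX) is MATa, so dal80-Pro and WT-Pro differ both in DAL80 and in mating type. The mutant is a single deletion strain, and both comparisons use the same 2 WT-Pro libraries.

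The last stretches of yeast chromosomes carry telomeric repeats, X and Y′ elements and families of closely related genes, many of them for the use of unusual sugars, nitrogen or metal sources. Telomere-proximal chromatin can be silenced by the Sir proteins, as are the HML and HMR mating-type cassettes. Dal80 is a GATA-family zinc finger protein known as a repressor of genes that serve the use of poor nitrogen sources. It is itself induced on proline and kept low on glutamine.

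Sequence upstream of some of the ORFs that were higher in dal80-Pro is given first, since GATA factors bind GATA-containing DNA. The deposited table gives a transcript row for each gene, and the 200 bases before its start were read from the R64 reference on the coding strand for each ORF whose transcript row begins before its ORF. Shown are 4 of these ORFs, 3 with and 1 without the motif GATAA, chosen as examples after the windows were searched, with every GATAA on either strand (TTATC when read on this strand) in capitals. The window of YIR042C lies at chr9:436065-436264 (minus strand), that of CHA1 at chr3:16950-17149 (minus strand), that of SEO1 at chr1:9261-9460 (minus strand) and that of MHT1 at chr12:17742-17941 (minus strand).
YIR042C: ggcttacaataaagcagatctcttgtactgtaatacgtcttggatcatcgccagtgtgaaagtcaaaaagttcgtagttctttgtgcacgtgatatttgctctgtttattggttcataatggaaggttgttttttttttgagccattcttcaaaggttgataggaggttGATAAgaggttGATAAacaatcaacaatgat
CHA1: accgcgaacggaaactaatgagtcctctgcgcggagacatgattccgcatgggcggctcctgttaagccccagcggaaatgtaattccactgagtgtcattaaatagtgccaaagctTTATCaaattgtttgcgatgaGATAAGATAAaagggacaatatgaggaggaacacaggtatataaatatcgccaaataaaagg
SEO1: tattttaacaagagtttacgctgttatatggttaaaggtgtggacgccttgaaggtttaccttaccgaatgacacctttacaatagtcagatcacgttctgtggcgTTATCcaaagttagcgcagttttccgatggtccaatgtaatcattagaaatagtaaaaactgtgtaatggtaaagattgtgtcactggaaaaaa
MHT1: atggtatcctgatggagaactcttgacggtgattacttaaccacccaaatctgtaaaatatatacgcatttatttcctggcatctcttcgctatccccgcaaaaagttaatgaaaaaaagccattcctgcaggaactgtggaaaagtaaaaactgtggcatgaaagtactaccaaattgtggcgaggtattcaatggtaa
The windows of YIR042C, CHA1 and SEO1 hold 2, 3 and 1 GATAA, whereas that of MHT1 holds none. MHT1 and its neighbour MMP1 are transcribed away from each other, and the window of MMP1 at chr12:17745-17944 on the plus strand, almost the same DNA, holds none either. GATAA was present in the windows of 5 of the 10 ORFs higher in dal80-Pro that have an annotated transcript start (50%), of 36 of 79 such ORFs near chromosome ends (45.6%) and of 2237 of 4925 nuclear ORFs (45.4%). The longer GATAAG, which contains GATAA, was present in 3 of the 10 (30%), in 10 of the 79 (12.7%) and in 470 of the 4925 (9.54%). None of the 5 windows of ORFs lower in dal80-Pro held GATAA. These matches describe letters in a window and were not tested as sites.

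Values are given as scaled reads, the reads of an ORF multiplied by 1 factor per library in the deposited table (0.551 to 1), or as densities, which are scaled reads per base of ORF (tag/nt). The libraries held 11659418 to 19316459 reads on nuclear ORFs. DAL80 held 16 and 17.7 scaled reads in WT-Glu, 3537 and 2729 in WT-Pro and 6.15 and 2.75 in dal80-Pro, which fits the labels. Of transcripts specific to mating type, 4 of 4 alpha-specific genes were lower in dal80-Pro than in WT-Pro and 3 of 7 a-specific genes were higher.

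ORFs near chromosome ends carried few reads. Their median density was 0.0433 tag/nt in WT-Glu, 0.0554 in WT-Pro and 0.0456 in dal80-Pro, against 0.354, 0.378 and 0.368 for the 5524 other nuclear ORFs. The mean density over the 6 libraries exceeded the median of the other ORFs for 47 of the 248. No read was found in any library for 11 of the 248, against 3 of the 5524 others. Those at 0 and nearest to an end were YAL067W-A, YCR108C, YNR075C-A, YNR077C and YOL166W-A.

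Density was higher farther from the end, with the last 5 kb of the region above the rest of it in each of the 6 libraries. Median densities in WT-Pro were 0.0262 tag/nt for the 66 ORFs within 5 kb, 0.0308 for the 62 between 5 and 10 kb, 0.0796 for the 64 between 10 and 15 kb and 0.255 for the 56 between 15 and 20 kb. In dal80-Pro the same classes stood at 0.0263, 0.0206, 0.0520 and 0.283, and in WT-Glu at 0.0247, 0.0288, 0.0619 and 0.234. The step between the third and the last 5 kb was thus the steepest of the region in each group when all 248 ORFs were taken. In WT-Glu and WT-Pro it was not the steepest among ORFs of mostly unique sequence, whose medians are given below. Beyond the region, medians in WT-Glu, WT-Pro and dal80-Pro were 0.156, 0.293 and 0.323 between 20 and 30 kb and 0.338, 0.362 and 0.338 between 30 and 50 kb. Across the 248 ORFs, Spearman's rho between density and distance was 0.46 in WT-Glu, 0.49 in WT-Pro and 0.48 in dal80-Pro, as a description over ORFs that share libraries and repeats.

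**Figure D1:**
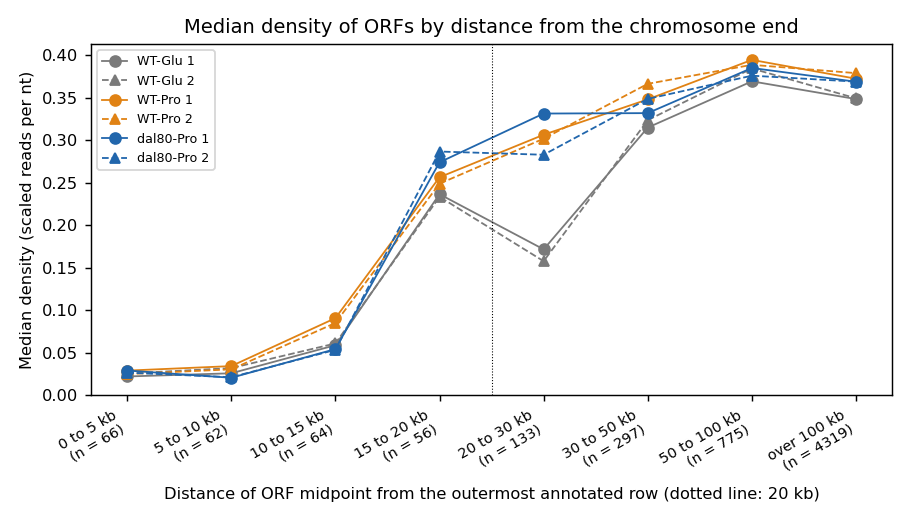
Median density (scaled reads per nt, vertical axis) of nuclear ORFs grouped by the distance of the midpoint from the outermost annotated feature of the chromosome (horizontal axis, with the number of ORFs), 1 line per library. All 6 libraries stay under 0.1 up to 15 kb and lie between 0.23 and 0.29 at 15 to 20 kb.

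At the edge of the window, the 3 innermost ORFs taken were FZF1 (19.98 kb), GAB1 (19.97 kb) and YAL064W (19.90 kb), and the 3 outermost ORFs not taken were PRE4 (20.05 kb), DSF1 (20.08 kb) and YHR214W (20.09 kb). Of these, the log2 fold change of WT-Pro against WT-Glu was 0.03 for FZF1, -1.56 for GAB1, -0.95 for PRE4, -0.42 for DSF1 and 0.78 for YHR214W, and YAL064W was not tested.

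Much of the region is repeated. Of the 248 ORFs, 109 had at least 90% of their 50-base words, the length of 1 read, once in the genome, and 36 had no unique word at all, against 24 of the 5524 others. The 109 ORFs of mostly unique sequence had median densities of 0.205, 0.213 and 0.260 tag/nt in WT-Glu, WT-Pro and dal80-Pro, while the 139 others had 0.0207, 0.0238 and 0.0197. Among the 109, rho between density and distance was 0.37, 0.34 and 0.29 in the same order. Their medians at 0 to 5, 5 to 10, 10 to 15 and 15 to 20 kb (11, 21, 31 and 46 ORFs) were 0.0207, 0.168, 0.274 and 0.289 in WT-Pro. The same classes stood at 0.0955, 0.0931, 0.262 and 0.390 in WT-Glu and at 0.0130, 0.193, 0.221 and 0.411 in dal80-Pro. Repeated sequence and distance move together, and their parts in the low densities were not tested. Uncharacterized ORFs made up 39.5% of the region and 13.6% of the other ORFs.

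**Figure D2:**
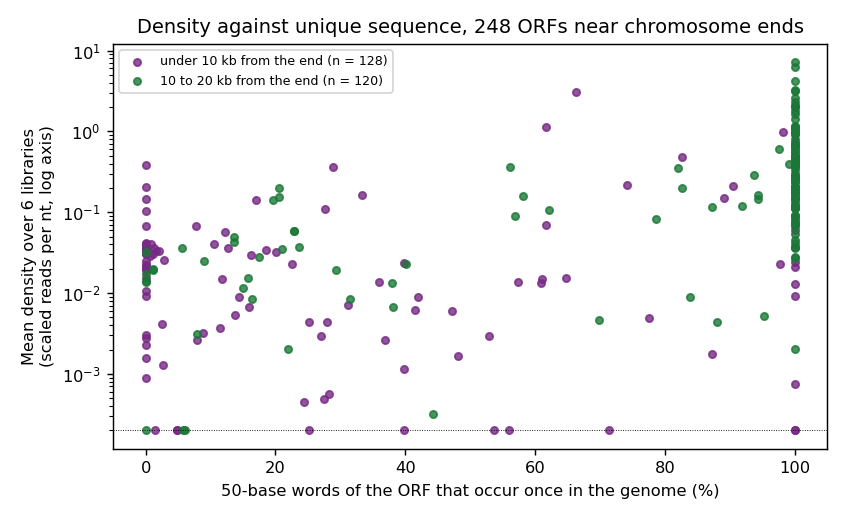
Mean density over the 6 libraries (scaled reads per nt, log axis) against the percentage of 50-base words of each ORF that occur once in the genome, for 128 ORFs under 10 kb and 120 at 10 to 20 kb from the end. Points on the dotted line include the 11 ORFs with no read, and the highest densities, up to 7.14 for LYS1, lie at 100% unique words.

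The methods describe uniquely mapped reads, yet the 36 ORFs without a unique word held 20486 reads over the 6 libraries, 2.67% of all reads of the 248. There were 10 sets of ORFs with identical sequence, which held 19 of the 248. COS2 and COS3, an identical pair, differed in every library: COS2 had 341, 482, 196, 152, 225 and 327 reads before scaling and COS3 had 674, 834, 400, 279, 422 and 666, in the order WT-Glu, WT-Pro and dal80-Pro. The isomaltase copies IMA3 and IMA4, also identical, had 203 and 210 reads in all. Values of a single copy in such a set, or of an ORF with few unique words, are therefore uncertain, and are given below as deposited.

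The 248 ORFs took 0.568 and 0.674% of the nuclear ORF reads in WT-Glu (mean 0.621%, SD 0.0751, n = 2), 0.939 and 1.01% in WT-Pro (0.976%, SD 0.0525) and 1.07 and 0.941% in dal80-Pro (1.00%, SD 0.0878). The share was higher in both WT-Pro libraries than in both WT-Glu libraries, and the 2 strains on proline overlapped. An exact two-sided permutation test of 2 against 2 libraries cannot go below p = 0.333. On the deposited scale the order was the opposite, with 92260 and 111869 scaled reads on the 248 in WT-Glu and 75816 and 86543 in WT-Pro, and the scaled sum over all nuclear ORFs was also lower on proline (16256891 and 16603241 against 8071520 and 8538260). The most densely covered were LYS1 (7.14 tag/nt over 6 libraries), a lysine synthesis enzyme, the zinc transporter gene ZRT1 (6.34), the peroxidase gene HYR1 (4.23), the alcohol dehydrogenase gene ADH6 (3.23) and the glutathione transferase gene GTT1 (3.15). These 5 held 21.1 to 34.4% of the reads of the region in each library.

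Changes were tested with limma on log2(scaled reads + 1) over the 5630 nuclear ORFs that passed a filter on low counts, which 199 of the 248 did. The other 49 ORFs were not tested. A call needed an adjusted p (Benjamini-Hochberg, over the 5630) no higher than 0.01 together with a change of 2-fold or more, which is 1 on the log2 scale. Between WT-Pro and WT-Glu, 24 of the 199 were higher on proline (12.1%, against 12.9% of all ORFs tested and 12.9% of those farther inside) and 26 were lower (13.1%, against 15.6% and 15.7%). The shares were close to the background in both directions. Between dal80-Pro and WT-Pro, 15 were higher (7.54%, against 3.61% of all ORFs tested and 3.46% of those farther inside) and 15 were lower (7.54%, against 4.42% and 4.31%). The adjoining ORFs 20 to 30 kb from an end had shares of 11.5% higher and 6.56% lower in dal80-Pro and of 27.0% higher and 11.5% lower on proline. Libraries of the 2 groups did not overlap for 67.8% of the 199 in the first comparison (82.6% of all) and for 68.8% in the second (71.8% of all). The median log2 fold change was 0.03 and -0.03 in the 2 comparisons, against 0.04 and 0.05 for all ORFs tested.

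These counts depended on the scaling and, for the strains, on single libraries. With totals of ORF reads in place of the deposited factors, the scaling the methods describe, 82 were higher and 2 lower on proline, with the median of all ORFs shifted to 0.95, and 13 were higher and 25 lower in dal80-Pro. The 15 higher in dal80-Pro became 7 without the first WT-Pro library, 8 without the second and 7 without the first dal80-Pro library. Over all ORFs tested, the 203 higher became 103, 164 and 76 in the same order. The 15 lower became 4 without the first WT-Pro library, 4 without the first dal80-Pro library and 3 without the second. Over all ORFs tested, the 249 lower became 160, 127 and 151, a smaller relative loss than in the region.

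**Figure D3:**
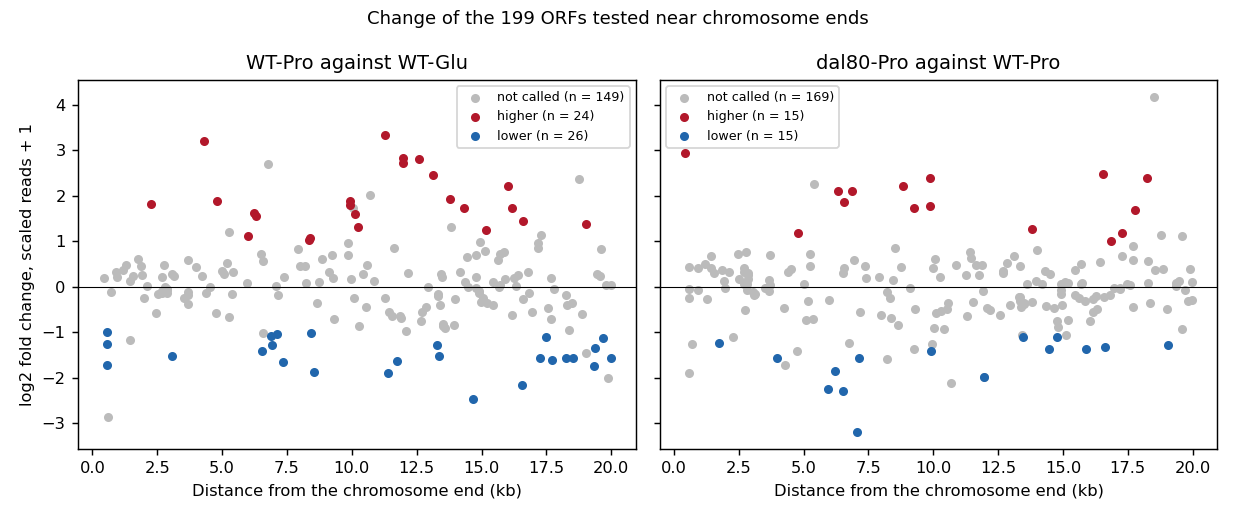
Log2 fold change of scaled reads + 1 (vertical axis) against distance from the chromosome end (kb) for the 199 ORFs tested, WT-Pro against WT-Glu on the left and dal80-Pro against WT-Pro on the right, with ORFs called higher in red and lower in blue. Called ORFs lie from 0.57 to 19.97 kb in the left panel and from 0.44 to 19.04 kb in the right.

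Signed change did not follow distance in the way density did. Spearman's rho between log2 fold change and distance was -0.09 for WT-Pro against WT-Glu and 0.005 for dal80-Pro against WT-Pro (199 ORFs each). Rises and falls cancel in such a rho, so it does not show where calls lie. At 0 to 5, 5 to 10, 10 to 15 and 15 to 20 kb, 46, 43, 56 and 54 ORFs were tested. In dal80-Pro 4.35, 16.3, 1.79 and 9.26% of them were higher and 4.35, 14.0, 7.14 and 5.56% lower, against 3.61% and 4.42% of all ORFs. On proline 6.52, 16.3, 16.1 and 9.26% were higher and 8.70, 16.3, 8.93 and 18.5% lower, against 12.9% and 15.6%. Calls for the nitrogen source fell at 24 of the 32 ends and calls for the strain at 14, and 8 and 5 ends held calls in both directions. Of the 15 ORFs higher in dal80-Pro, 14 were of mostly unique sequence, as were 9 of the 15 lower, 14 of the 24 higher on proline and 15 of the 26 lower, against 103 of the 199 tested.

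Of 5 permease genes for nitrogen and sulfur compounds in the region 4 were tested and 3 were higher in dal80-Pro, against 3.61% of all ORFs tested. The median log2 fold change was 1.91, against 0.05 for all ORFs. Of the 10 genes of the same list that lie elsewhere, 5 were higher, with a median of 1.27. Families were listed with earlier results of these data known, so counts within them are a description. SEO1, which encodes a putative permease of the allantoate transporter family, held 51 and 77.7 scaled reads in WT-Glu, 189 and 186 in WT-Pro and 1105 and 606 in dal80-Pro. The 3 groups did not overlap. Its log2 fold change was 1.56 (SE 0.30, limma adjusted p = 0.0026) for the nitrogen source and 2.12 (SE 0.30, adjusted p = 0.00222) for the strain. AGP3, an amino acid permease gene, held 196 and 277 in WT-Glu, 237 and 215 in WT-Pro and 1011 and 536 in dal80-Pro, so it was high in the mutant alone, with 1.70 (SE 0.29, limma adjusted p = 0.00528). MMP1, the S-methylmethionine permease gene, held 845 and 1031 in WT-Glu, 283 and 346 in WT-Pro and 1816 and 1500.1 in dal80-Pro. It was lowest in WT-Pro and highest in dal80-Pro without overlap, with -1.57 (SE 0.17, limma adjusted p = 0.000173) for the nitrogen source and 2.39 (SE 0.17, adjusted p = 7.99e-05) for the strain. VBA5, a vacuolar basic amino acid permease homolog, held 2.20 to 7.51 scaled reads and was not called. The 3 calls became 1 without either WT-Pro library or without the first dal80-Pro library.

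Of 6 listed enzyme genes for amino acids and for nitrogen or sulfur compounds in the region 4 were tested. All 4 were higher in dal80-Pro (median 2.13), against 2 of 6 listed genes elsewhere (median 1.14) and 3.61% of all ORFs tested. This mixed list too was made with earlier results of these data known. The count of 4 became 2 without either WT-Pro library or without the first dal80-Pro library. CHA1, the serine and threonine deaminase gene, held 81 and 84.6 scaled reads in WT-Glu, 144 and 126 in WT-Pro and 730.0 and 686 in dal80-Pro. Its groups stood in 3 separate steps, with a difference between the strains of 2.39 on the log2 scale (SE 0.13, limma adjusted p = 2.94e-05) and one between the nitrogen sources of 0.70, under the threshold of 1. MHT1, which encodes the S-methylmethionine-homocysteine methyltransferase and adjoins MMP1, held 204 and 205 in WT-Glu, 34.3 and 59.3 in WT-Pro and 302 and 221 in dal80-Pro. Like MMP1 it was lowest in WT-Pro, with -2.15 (SE 0.27, limma adjusted p = 0.000342) and 2.49 (SE 0.27, adjusted p = 0.000593). DLD3, a D-2-hydroxyglutarate dehydrogenase gene, held 2283 and 2657 in WT-Glu, 2223 and 2249 in WT-Pro and 4560.1 and 4478 in dal80-Pro, a rise of 1.01 (SE 0.13, limma adjusted p = 0.00141) that lies at the threshold. DLD3 was not called with TMM factors, with totals or when any 1 of the 4 proline libraries was left out, nor MHT1 between the strains without the first dal80-Pro library. BDS1, an alkyl sulfatase gene, held 329 and 376 in WT-Glu, 555 and 488 in WT-Pro and 2754 and 1332 in dal80-Pro, with 1.88 (SE 0.30, limma adjusted p = 0.00383).

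YOL163W and YOL162W, the 2 ORFs that follow BDS1 on its inner side, were also higher in dal80-Pro. YOL163W held 122 and 105 in WT-Pro and 510.1 and 282 in dal80-Pro (1.73, limma adjusted p = 0.00322), and YOL162W held 123 and 88.6 and then 468 and 275 (1.77, adjusted p = 0.00462). In these 3 ORFs, SEO1, AGP3 and ARN2 the first dal80-Pro library was higher than the second by 1.70 to 2.15 times, and SEO1, AGP3, YOL163W and YOL162W lost their calls without it. All 6 lost their calls between the strains without either WT-Pro library. The midpoint of YIR042C, an uncharacterized ORF, lay 0.44 kb from the last annotated base of the right arm of chromosome 9. That was among the smallest distances of the ORFs tested, although 3824 bases of reference sequence lie beyond that base. YIR042C had the largest called rise in the mutant. It held 90 and 60.0 scaled reads in WT-Glu, 98.7 and 71.0 in WT-Pro and 681 and 617 in dal80-Pro, with 2.94 (SE 0.23, limma adjusted p = 0.000148). The wild type libraries overlapped between nitrogen sources and the mutant ones stood apart.

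**Figure D4:**
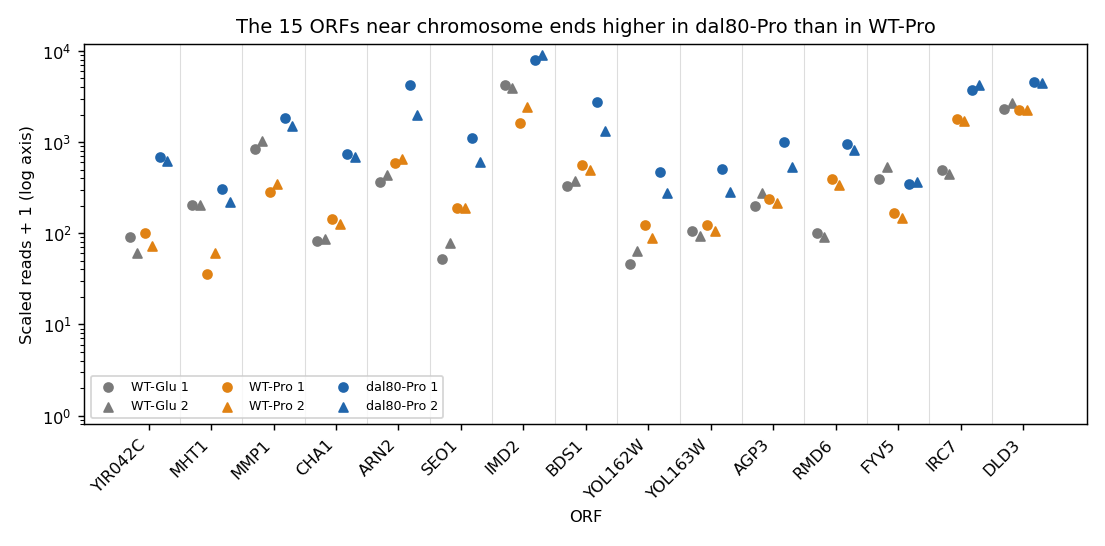
Scaled reads + 1 (log axis) of the 15 ORFs near chromosome ends higher in dal80-Pro than in WT-Pro, ordered by log2 fold change, with 1 point per library (circles replicate 1, triangles replicate 2). Every dal80-Pro point lies above both WT-Pro points, and IMD2, MHT1, MMP1 and FYV5 were lower in WT-Pro than in WT-Glu.

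A group of 3 ORFs rose in both comparisons, namely SEO1 (above), IRC7 and RMD6. IRC7, a cysteine desulfhydrase gene, held 491 and 450.3 scaled reads in WT-Glu, 1782 and 1711 in WT-Pro and 3703 and 4242 in dal80-Pro, with 1.89 (SE 0.13, limma adjusted p = 3.01e-05) and 1.18 (SE 0.13, adjusted p = 0.000581). RMD6 held 99 and 90.5 in WT-Glu, 395 and 339.8 in WT-Pro and 941 and 827 in dal80-Pro, with 1.94 (SE 0.14, limma adjusted p = 4.04e-05) and 1.27 (SE 0.14, adjusted p = 0.0007). Both formed 3 steps without overlap. Between the strains IRC7 was not called with totals of ORF reads or without the second dal80-Pro library, nor RMD6 without the first. The call of SEO1 on proline was lost without either WT-Pro library. IMD2, an IMP dehydrogenase gene of guanine nucleotide synthesis, went down on proline and up in the mutant. It held 4273 and 3965 in WT-Glu, 1598 and 2411 in WT-Pro and 7873 and 9031 in dal80-Pro. The rise of 2.10 (SE 0.20, limma adjusted p = 0.000371) held under every scaling tried, whereas the fall of -1.07 on proline was not called with TMM factors or with totals, nor without the first WT-Pro library.

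Metal transport genes in the region were called singly. Of 5 siderophore and iron uptake genes, FRE2, a ferric reductase gene, was higher on proline with 107 and 133 scaled reads in WT-Glu and 241 and 249 in WT-Pro (1.03, SE 0.16, limma adjusted p = 0.00112), a call lost without the first WT-Glu or the second WT-Pro library. ARN2, a siderophore transporter gene, was higher in the mutant, with 368 and 437 in WT-Glu, 591 and 644 in WT-Pro and 4229 and 1963 in dal80-Pro (2.22, SE 0.31, limma adjusted p = 0.00229). ARN1, another siderophore transporter gene on the same arm of chromosome 8, held 492 and 598 in WT-Pro and 1548 and 903 in dal80-Pro but missed the threshold (1.12, limma adjusted p = 0.0122). Of the 11 siderophore and iron uptake genes listed elsewhere, 5 were higher in dal80-Pro (median 1.56), against 3.61% of all ORFs tested. The median of the 5 in the region was -0.25. ZRT1, the high-affinity zinc transporter gene, differed widely between replicates, with 611 and 2007 in WT-Glu, 2776 and 12028 in WT-Pro and 14446 and 11126 in dal80-Pro, and was called in neither comparison (limma adjusted p = 0.0209 and 0.262). It alone took 0.662 to 14.1% of the reads of the region. FDH1, a formate dehydrogenase gene with 15.8% unique words, held 1 and 3.93 in WT-Glu, 0 and 5.13 in WT-Pro and 66.2 and 29.2 in dal80-Pro, which also missed the threshold (4.19, SE 0.92, limma adjusted p = 0.0137). The 4 phosphate genes, PHO11, PHO12, PHO89 and GIT1, were not called in either comparison (medians 0.29 and -0.81).

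Sugar and vitamin genes near the ends were mostly low. Of 10 maltose, isomaltose and sucrose genes 9 were tested and 2 were higher on proline, with a median of 0.86. MAL33, a maltose activator gene, held 100 and 115 in WT-Glu and 245 and 291 in WT-Pro (1.31, SE 0.16, limma adjusted p = 0.000362). MAL12, a maltase gene with 16.4% unique words, held 2 and 1.97 in WT-Glu and 19.2 and 12.4 in WT-Pro (2.47, SE 0.43, limma adjusted p = 0.00171), and was not called without the first WT-Pro library. The remaining 7 were not called with the deposited scaling, while 8 of the 9 were higher with totals of ORF reads. Of the 8 thiamine and vitamin B6 genes, SNZ2 and SNZ3, copies of a vitamin B6 synthesis gene, were lower on proline. SNZ2 held 71 and 105 in WT-Glu and 27.4 and 32.2 in WT-Pro (-1.51, limma adjusted p = 0.00115), and SNZ3 held 76 and 112 and then 28.1 and 30.8 (-1.62, adjusted p = 0.000909). Their partner genes SNO2 and SNO3 lie beside them and were not called (0.31 and 0.49). SNZ2 and SNZ3 each had 22.9% unique words and SNO2 and SNO3 each 13.5%, so the values of these copies are not fully separate. Neither SNZ call held with totals of ORF reads, nor that of SNZ2 without the first WT-Pro library.

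Small families of stress and glycolysis-related copies were higher on proline. SNO4, HSP32 and HSP33 encode proteins of the Hsp31 family and differ from each other at 4 or 8 of 714 bases. A stretch of 120 bases of each ORF (bases 286 to 405) shows how few bases separate the copies, with the 2 that differ in capitals, from chr13:918675-918794 (minus strand), chr16:12172-12291 (plus strand) and chr15:1078854-1078973 (minus strand).
SNO4: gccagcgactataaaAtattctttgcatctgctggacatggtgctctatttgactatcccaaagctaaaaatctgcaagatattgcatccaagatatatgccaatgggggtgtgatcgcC
HSP32: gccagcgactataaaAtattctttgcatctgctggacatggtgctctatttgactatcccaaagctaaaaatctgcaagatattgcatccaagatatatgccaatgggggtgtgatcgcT
HSP33: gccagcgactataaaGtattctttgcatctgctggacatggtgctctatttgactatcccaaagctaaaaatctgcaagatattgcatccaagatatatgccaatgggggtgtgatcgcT
SNO4 held 3 and 2.95 scaled reads in WT-Glu, 38.4 and 33.7 in WT-Pro and 7.51 and 13.8 in dal80-Pro, a rise of 3.22 on the log2 scale on proline (SE 0.40, limma adjusted p = 0.000341). HSP32 held 2 and 4.92, then 30.9 and 23.4, then 7.51 and 4.96 (2.73, limma adjusted p = 0.00184). HSP33 held 6 and 8.85, then 68.6 and 49.1, then 11.6 and 16.5 (2.83, limma adjusted p = 0.000314). Unique words made up 22.6% of SNO4, 0% of HSP32 and 23.6% of HSP33, so the values of these copies are not fully separate. All 3 ORFs were highest in WT-Pro without overlap, and all 3 were called higher on proline under every scaling tried, although HSP32 was not called without either WT-Pro library. Their log2 fold changes of dal80-Pro against WT-Pro were -1.72, -1.97 and -1.99, of which the last passed the test (limma adjusted p = 0.00528). That call was lost when any 1 of the 4 proline libraries was left out. HSP31 itself, which lies outside the region, held densities of 3.95 tag/nt in WT-Glu and 5.49 in WT-Pro. It was not called on proline (0.49) and was lower in dal80-Pro (-1.53).

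The enolase-related ORFs ERR1, ERR2 and ERR3 adjoin these genes and moved in the same direction. ERR1 held 22 and 25.6 in WT-Glu, 83.6 and 87.9 in WT-Pro and 31.4 and 31.9 in dal80-Pro, with 1.81 (SE 0.20, limma adjusted p = 0.000221) on proline and -1.41 (SE 0.20, adjusted p = 0.00252) in the mutant, a call lost when any 1 of the 4 proline libraries was left out. ERR2, identical to ERR1 in sequence, held 4 and 8.85, then 23.3 and 27.1, then 8.88 and 11.0 (1.90 on proline, limma adjusted p = 0.00554). ERR3 held 6 and 10.8, then 29.5 and 33.0, then 10.2 and 18.7 (1.82, limma adjusted p = 0.00572). All 3 were higher on proline without overlap, and 1 of the 3 stayed called without the first WT-Glu library or without either WT-Pro library. The enolase genes ENO1 and ENO2, which lie elsewhere, were lower on proline, with a median of -3.11.

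The COS family, membrane proteins that act in the endosomal sorting of surface proteins, was lower on proline almost throughout. All 11 COS genes lie in the region and all were tested. In WT-Pro 10 were called lower than in WT-Glu, against 15.6% of all ORFs tested. The median log2 fold change was -1.41, against 0.04 for all ORFs. Only 3 of the 11 had at least 90% unique words, and 2, the identical COS2 and COS3, had none, so the 10 calls are not fully separate. COS1, with 28.9% unique words, held 632 and 778 in WT-Glu, 229 and 159 in WT-Pro and 294 and 411 in dal80-Pro (-1.87, SE 0.23, limma adjusted p = 0.000326). COS10, of unique sequence, held 430 and 431, then 173 and 129, then 144 and 132 (-1.52, limma adjusted p = 0.000192). COS9, with 99.1% unique words, held 731 and 896, then 309.9 and 361, then 275 and 299 (-1.27, limma adjusted p = 0.000265). In each of these the 2 WT-Glu libraries lay above the other 4. COS7 was called with a fold change just at the threshold (limma adjusted p = 0.00982) and lost its call under 12 alternatives. COS12 was the exception, with 120 and 98.3 in WT-Glu, 20.6 and 9.52 in WT-Pro and 0.683 and 8.81 in dal80-Pro, and was not called (-2.86, SE 0.76, limma adjusted p = 0.0123). None was called between the strains (median 0.16). With totals of ORF reads the family median was -0.49 and none was called, while its distance from the median of all ORFs was -1.45 under both scalings. Without the second WT-Pro library 6 of the 11 were called.

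**Figure D5:**
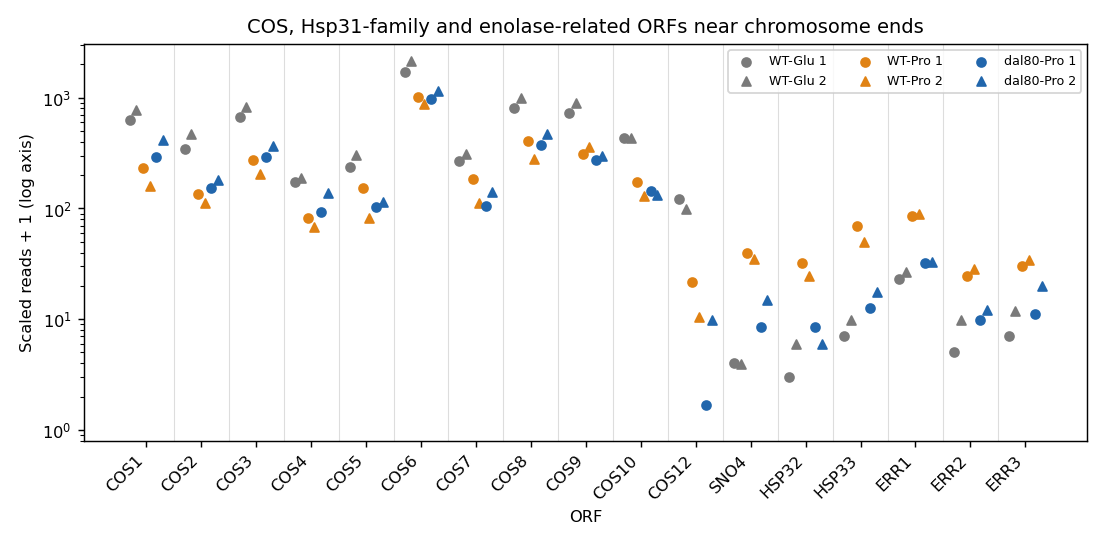
Scaled reads + 1 (log axis) of the 11 COS genes, of SNO4, HSP32 and HSP33 and of ERR1, ERR2 and ERR3, with 1 point per library (circles replicate 1, triangles replicate 2). WT-Glu points are the highest for every COS gene, and WT-Pro points are the highest for the other 6 ORFs.

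Falls on proline outside these families included the following 3 ORFs. YIR035C, a putative short-chain dehydrogenase gene, fell most, from 1610 and 1609 scaled reads in WT-Glu to 293 and 292 in WT-Pro (-2.45, SE 0.11, limma adjusted p = 6.16e-06), and kept its call under every alternative. ADH6, an NADPH-dependent alcohol dehydrogenase gene, fell from 6132 and 6001 to 1459 and 1839 (-1.89, limma adjusted p = 5.5e-05). ERG13, the HMG-CoA synthase gene of sterol synthesis, fell from 5489 and 5664 to 1711 and 1610.3 (-1.75, limma adjusted p = 4.04e-05). Neither ADH6 nor ERG13 was called with totals of ORF reads.

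Among the rises on proline, SRY1, a 3-hydroxyaspartate dehydratase gene, went from 484 and 526 in WT-Glu to 2265 and 2406 in WT-Pro (2.21, SE 0.11, limma adjusted p = 1.18e-05). YNR071C, a putative aldose epimerase gene, went from 16 and 15.7 to 104 and 132 (2.81, SE 0.21, limma adjusted p = 4.4e-05). YBR296C-A held no read in either WT-Glu library and 10.3 and 8.06 scaled reads in WT-Pro (limma adjusted p = 0.00214), and no fold is given for it. Its call was lost without either WT-Pro library. FLO10, a flocculin gene of the cell surface, rose with its neighbours NFT1 and YKR104W at the right end of chromosome 11. FLO10 held 231 and 271 in WT-Glu and 642 and 560.2 in WT-Pro (1.26, limma adjusted p = 0.000195), NFT1 rose by 1.08 and YKR104W by 1.12. The seripauperins and related small wall proteins had 19 genes in the region, none with 90% unique words. Of the 5 tested, PAU12 was higher on proline, from 5 and 3.93 to 15.1 and 16.1 (1.61, SE 0.38, limma adjusted p = 0.00766), a call lost under 8 alternatives.

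The Y′ element helicase ORFs, which lie in the outermost repeats, did not pass the test in either comparison. All 8 YRF1 ORFs were tested and their medians were -0.08 and 0.29. YRF1-1 held 175 and 196 in WT-Glu, 167 and 168 in WT-Pro and 234 and 216 in dal80-Pro, and YRF1-4 held 113 and 139, then 145 and 127, then 178 and 192. All 8 had positive log2 fold changes between the strains, of 0.42 and 0.44 in these 2 (limma adjusted p = 0.0471 and 0.0736). However, 6 of the 8 had no unique word and several are identical in sequence, so their values are not separate observations. With totals of ORF reads the median of the 8 between the strains was 0.03, and 2 were higher on proline. Of 31 listed regulators of telomeric silencing and telomere proteins, none of which lies in the region, 30 were found and tested. On proline 3 of these were higher (10%, against 12.9% of all ORFs) and 0 lower (against 15.6%). In dal80-Pro 0 were higher (against 3.61%) and 1 lower (3.33%, against 4.42%).

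The HML cassette lies 6.22 to 7.07 kb inside the outermost annotated feature of the left arm of chromosome 3, which itself begins 6478 bases from the end of the reference sequence. HMLALPHA1 and HMLALPHA2, which encode the alpha mating-type regulators, are identical in sequence to MATALPHA1 and MATALPHA2. HMLALPHA1 held 64 and 91.4 scaled reads in WT-Glu, 72.0 and 83.5 in WT-Pro and 5.46 and 10.5 in dal80-Pro (-3.19, SE 0.33, limma adjusted p = 0.000478). HMLALPHA2 held 67 and 44.2, then 193 and 148, then 42.3 and 50.7, with 1.62 (limma adjusted p = 0.000928) on proline and -1.85 (limma adjusted p = 0.00184) in the mutant, where it overlapped WT-Glu. The fall in the mutant was not called without the first WT-Pro library or without either dal80-Pro library, nor was the rise on proline without the first WT-Pro library. The MAT copies held reads too, with 113, 115, 112, 117, 22 and 37 before scaling for MATALPHA1 against 64, 93, 105, 114, 8 and 19 for HMLALPHA1. The MATα wild type and the MATa mutant differ at MAT itself, and reads from MAT and HML cannot be told apart.

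At the right end of chromosome 3, RDS1 and AAD3 were lower in dal80-Pro. RDS1, a zinc cluster transcription factor gene, held 575 and 539 in WT-Glu, 808 and 694 in WT-Pro and 244 and 262 in dal80-Pro (-1.56, SE 0.13, limma adjusted p = 0.000168). AAD3, a putative aryl-alcohol dehydrogenase gene, held 214 and 238, then 359.9 and 330.3, then 150.2 and 140.4 (-1.24, SE 0.13, limma adjusted p = 0.000581), and was not called without the second dal80-Pro library. Both were lowest in the mutant and highest in WT-Pro, and the other 6 of the 7 AAD genes in the region were not called. LYS1, the saccharopine dehydrogenase gene, held 9685 and 8872 in WT-Glu, 8521 and 12707 in WT-Pro and 3193 and 5056 in dal80-Pro (-1.37, SE 0.27, limma adjusted p = 0.00815), and its call was lost when any 1 of the 4 proline libraries was left out. YPS5, related to yapsin proteases, and its neighbour YGL258W-A held 66.5 and 33.7, and 39.1 and 22.0, in WT-Pro, and 8.19 and 10.5, and 5.46 and 4.96, in dal80-Pro (-2.24 and -2.29, limma adjusted p = 0.00363 and 0.00395). Both calls were lost without the first WT-Pro library or without either dal80-Pro library.

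A last pair of neighbours at the right end of chromosome 5 rose on proline and fell in the mutant. YER184C, a putative zinc cluster protein gene, held 276 and 253 in WT-Glu, 742 and 637 in WT-Pro and 309 and 262 in dal80-Pro (1.38 and -1.27, limma adjusted p = 0.00016 and 0.000783). PUG1, a plasma membrane transporter gene, held 64 and 61.0, then 184 and 163, then 66.9 and 71.6 (1.46 and -1.31, limma adjusted p = 0.00019 and 0.00108). In both, only the WT-Pro libraries were high. Of the 24 ORFs higher on proline, 3 were higher and 5 lower in dal80-Pro, and of the 26 lower on proline, 4 were higher and 1 lower. Since the WT-Pro libraries enter both comparisons, these counts are a description. No such counts were made over all ORFs, so those of the region show nothing particular to it. YEL073C was lower in both, with 511 and 627, then 254 and 301, then 76.5 and 113, although its fall on proline was not called with TMM factors or totals, nor without the second WT-Glu library or either WT-Pro library. Its fall in the mutant was not called without either WT-Pro library or without the first dal80-Pro library.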

How the data were processed

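The authors mapped paired-end reads of 50 nt with TopHat to build R64, per the labels and the methods. The counter was not given in the sources used here. The deposited table held 11987 features, with 5795 ORFs. The first WT-Glu column held counts of whole reads, and the deposited signal columns of the other 5 libraries held reads multiplied by 1 factor per library. All values (100%) were whole after division by it, within 1e-06. The factors (0.551 to 1) were not those given by ORF totals. Deposited densities (signal) were scaled reads per nt. The authors' mean columns were not used.

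Tests used limma 3.58.1 (R 4.3.3) with a trend on log2(scaled reads + 1), all 6 libraries, 3 residual and 4.52 prior degrees of freedom, after filterByExpr of edgeR 4.0.16. edgeR and DESeq2 1.42.0 on recovered reads, other scalings, pseudocounts and filters, transcript features, a replicate block and each library left out were alternatives. With 2 libraries per group p-values rest on few replicates. Counts of a few reads are imprecise, and their error beyond counting was not tested. Scripts were tested on simulated data. Unique words were 50-base words found once in the R64 genome on both strands, where 245 of the 248 ORFs have the deposited start and end.

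Named ORFs were in each comparison the 10 highest and the 10 lowest called changes without overlap, up to 4 per family, the 5 densest, the 3 nearest tested and up to 5 without reads. ORFs named beyond this (NFT1, YKR104W, YER184C, PUG1, IMA3, COS9, COS10, FYV5, FZF1, GAB1, YAL064W and those outside the region) were chosen after their values were seen. The ORFs and the families were chosen with earlier results of these data known.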

Additional observations from a re-analysis of the deposited data

How the results depend on the processing

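Named ORFs gave 166 results and 2648 alternative values, of which 2444 kept direction and call, 124 lost a call, 80 gained one and 0 changed direction while called. For WT-Pro against WT-Glu, totals of ORF reads gave 82 higher and 2 lower of the region (2643 and 189 of all ORFs, against 725 and 878), and the median log2 fold change was 0.94 with totals, 0.15 with TMM and 0.13 with edgeR, where the median of all ORFs moved alike (0.95, 0.16 and 0.16). Leaving out 1 library gave 17 to 29 higher, 21 to 34 lower and a median of -0.05 to 0.08. For dal80-Pro against WT-Pro, totals gave 25 lower and a median of -0.28 (439 lower of all ORFs, against 249), and leaving out 1 library gave 7 to 18 higher, 3 to 21 lower and a median of -0.095 to 0.10. Over all ORFs, leaving out 1 library gave 76 to 237 higher and 127 to 284 lower in dal80-Pro. The replicate block gave 23 and 24 calls, and 13 and 11. The numbers do not pair the libraries (correlation of deviations -0.24, 0.18 and 0.03). The crossed replicate block, chosen after seeing the data, gave 20 and 27 for the nitrogen source. With ends from the reference chromosome lengths 231 ORFs were taken and 24, 21, 14 and 15 calls made. Shares of reads in WT-Glu, WT-Pro and dal80-Pro were 0.523, 0.842 and 0.832% with ORFs of at least 90% unique words alone, and 0.568 to 0.674, 0.939 to 1.01 and 0.941 to 1.07% with single libraries. The median log2(density + 0.01) was -4.20, -3.98 and -4.17. It was -2.23, -2.15 and -1.96 with mostly unique ORFs, -2.79, -2.70 and -2.78 with a pseudocount of 0.1, -4.34 in WT-Glu and -4.21 in dal80-Pro with transcript features, and -4.24 to -4.16, -4.04 to -3.92 and -4.19 to -4.16 with single libraries. The causes of these shifts were not tested. The 49 ORFs that did not pass the filter on low counts entered the tests only where no filter was used, and p-values over 2 libraries per group reflect the spread between these cultures alone.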
